A study of Caenorhabditis elegans with 12 samples.

Results

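The pud genes of Caenorhabditis elegans (pud stands for protein up-regulated in daf-2) are 6 small protein-coding genes, pud-1.1, pud-1.2, pud-2.1, pud-2.2, pud-3 and pud-4, and all 6 were found among the 46904 gene IDs of the deposited tables. The members were chosen by name after pud-1.1 was seen to fall steeply from the pfd-6 mutant to the double mutant, so that drop is what selected them and is described below without a test. Of the other genotype comparisons, daf-2 mutants against N2 compared no library of that drop. Its tests still drew on those libraries, because the fit over all 12 libraries shared its estimate of spread. The remaining comparisons share libraries with the drop, so the pud-1 genes were not tested there. Tests of the other members in those comparisons are not fully independent of the choice. All 6 genes passed the filter on low counts, as did 15090 gene IDs in all.

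The study sequenced mRNA from whole bodies of day 1 adults of 4 genotypes, with 3 biological repeats of each. N2 is the laboratory wild type. The second genotype, daf-2(e1370), has a reduction-of-function allele in the gene for the worm's insulin receptor homolog. The third, pfd-6(gk493446), has an allele in the gene for subunit 6 of prefoldin, a chaperone that hands unfolded tubulin and actin to a chaperonin, and the fourth, called the double mutant here, carries both alleles. All animals grew on bacteria for control RNA interference (RNAi) until the last larval stage and then moved to plates with the DNA synthesis inhibitor FUdR and either control or pfd-6 RNAi bacteria. The series' design text speaks instead of hsf-1 RNAi, and no label gives the plates of a library, so genotype and plate cannot be told apart where they differed.

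The PUD proteins are small proteins named for being more abundant in daf-2 mutants, where reduced insulin signalling lets the transcription factor DAF-16 (FOXO) enter nuclei and change the expression of many genes. PUD-1 and PUD-2 bind each other as a heterodimer. PUD-3 and PUD-4 were named as relatives, and the cellular task of the family is poorly known. The files hold RNA and no protein measurement.

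The 6 genes formed 1 cluster on chromosome V of the WBcel235 genome, at chrV:2322038-2330930, a stretch of 8893 bp. From left to right, pud-1.2 (WBGene00021236, minus strand, 2322038 to 2322566) was followed by pud-2.2 (WBGene00017500, plus strand, 2323014 to 2323524), with 447 bp between them. Next came pud-3 (WBGene00017501, minus strand, 2324634 to 2325152) and pud-4 (WBGene00017498, plus strand, 2326678 to 2327282), separated by 1525 bp. At the right end lay pud-2.1 (WBGene00017490, minus strand, 2329444 to 2329954) and pud-1.1 (WBGene00017499, plus strand, 2330429 to 2330930), with 474 bp between them. Each end of the cluster thus held a pud-1 and a pud-2 gene pointing away from each other, in mirror image.

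The annotated exons repeated the same symmetry. Both pud-2 genes had exons of 253 and 212 bases. The pud-1 genes shared a second exon of 200 bases, while the first was 256 bases in pud-1.1 and 283 in pud-1.2, the difference being the 27 bases of 5′ UTR annotated for pud-1.2 alone. The single exon of pud-3 was 519 bases long, and the exons of pud-4 covered 564 bases. Ensembl calls both pud-2 genes pud-2.2, so WBGene00017490 was taken as pud-2.1 from its RefSeq locus name, F15E11.1.

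**Figure D1:**
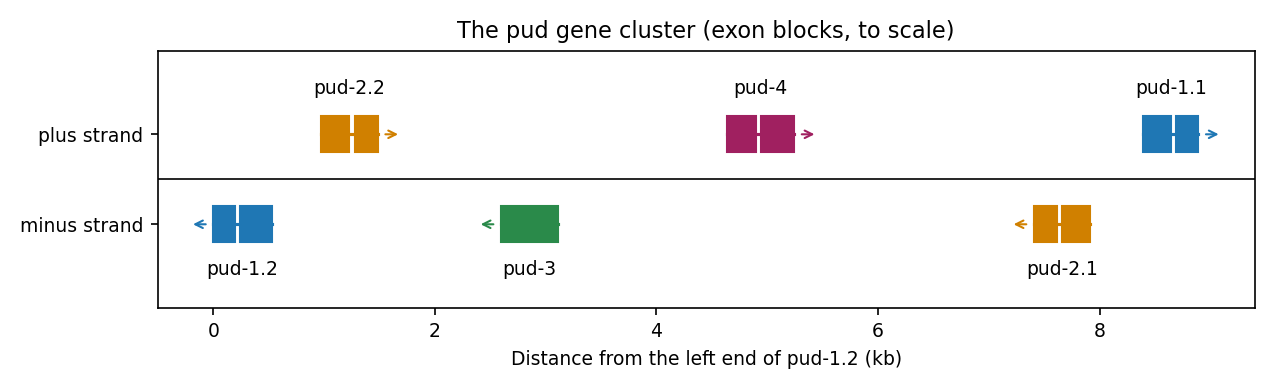
Map of the pud cluster to scale, with distance from the left end of pud-1.2 in kb on the horizontal axis and the 2 strands as rows. Blocks are annotated exons and arrows show the direction of transcription. The pud-1 (blue) and pud-2 (orange) genes form an outward-pointing pair at each end, around pud-3 and pud-4.

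Total expected counts per library ran from 19394046 to 41009125, and the pud genes together took 0.0309% to 0.635% of them. In CPM, counts scaled to a common library size, the pfd-6 RNA stood at 111 ± 28.9 (SD, n = 3) in N2, 100.7 ± 50.1 in daf-2 mutants, 13.9 ± 6.53 in pfd-6 mutants and 15.9 ± 1.32 in the double mutant. There were 2 libraries that stood apart: ribosomal protein genes took 1.41% of counts in daf-2 replicate 3 and 0.609% in pfd-6 replicate 3, against 9.33% to 15.9% in the other 10. These are called the low-ribosomal libraries here. The pud fold changes in each pairwise genotype comparison below are also given without them. The ratios, correlations, neighbouring genes, gene lists and marker sums keep them. The repeats were described as biological, and every pair within a genotype differed by more than counting noise (smallest ratio of chi-square to its degrees of freedom 21.65).

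The near-identical copies could be separated only in part. The expected counts of pud-1.1 and pud-1.2 were not whole numbers in any of the 12 libraries, yet their sum was whole, to within 0.01, in 12 of 12, and the same held for pud-2.1 and pud-2.2. Reads were therefore divided within each pair, and the pair sums are the firmer measurement. The deposited values put 2.84% to 16.44% of pud-1 counts on pud-1.1. They put 0.00735% to 18.2% of pud-2 counts on pud-2.1 in replicates 1 and 2, and 18.97% to 50.0% in replicate 3. No counting interval is given for these shares, because they depend on how reads were divided.

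The split of the pud-2 pair was extreme in the double mutant. There pud-2.1 received an expected count of 0.34 in replicate 1 and 42.1 in replicate 2, but 2755.5 in replicate 3, where pud-2.2 had exactly the same value. That was the only library in which any 2 members had equal values, so no 2 rows were identical. By contrast pud-3 had a count that was not whole in 3 of 12 libraries, in each of which its sum with pud-4 was whole.

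**Figure D2:**
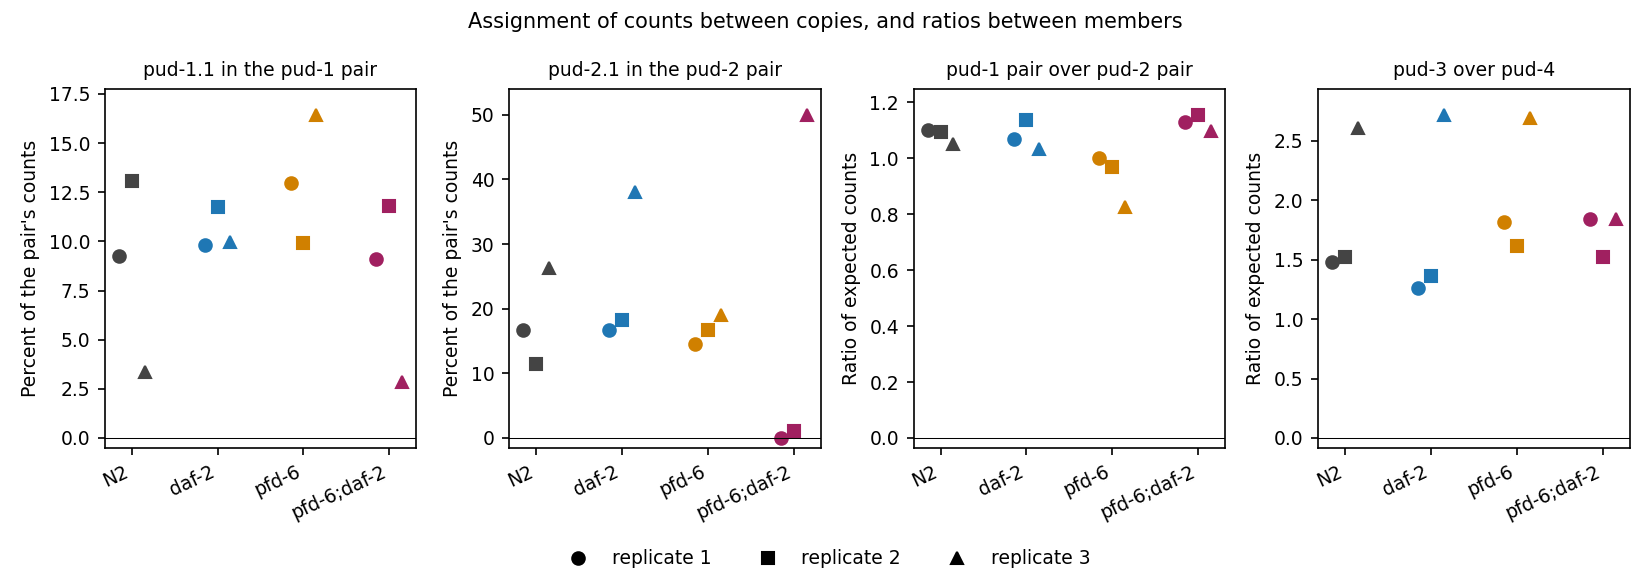
Share of each pair's expected counts given to pud-1.1 and to pud-2.1 (percent, left panels) and ratios of expected counts between members (right panels), by genotype. Each point is 1 library and its shape gives the replicate number. The pud-2.1 share spans 0.00735% to 50.0%, while the ratio of the pud-1 pair to the pud-2 pair stays between 0.826 and 1.16.

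In every library pud-1.2 carried most of the pud-1 counts, and pud-2.2 carried most of the pud-2 counts in all but double mutant replicate 3. Per kb of exon, pud-1.2 ranked 49 and pud-2.2 ranked 68 among the 15074 tested genes with an annotated exon length in N2, and 22 and 19 in pfd-6 mutants. Their ranks were 143 and 184 in daf-2 mutants and 272 and 373 in the double mutant. Of the remaining members, pud-3 ranked from 124 in pfd-6 mutants to 1620 in the double mutant, and pud-4 from 218 to 3235.

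The pud-1 genes encode one subunit of the PUD-1 and PUD-2 heterodimer. In replicates 1, 2 and 3, the pud-1 pair stood at 1450, 954 and 2380 CPM in N2, at 339, 207 and 645 in daf-2 mutants, at 2579, 1867 and 1021 in pfd-6 mutants, and at 184, 140 and 297 in the double mutant. Every N2 and pfd-6 library lay above every daf-2 and double mutant library, while N2 overlapped pfd-6 and daf-2 overlapped the double mutant. With counts scaled by library totals alone, N2 and daf-2 overlapped too: daf-2 replicate 3 was at 864 CPM and N2 replicate 2 at 775. Most of this was pud-1.2, at 1316, 829 and 2299 CPM in N2, 306, 182 and 580 in daf-2 mutants, 2245, 1681 and 853 in pfd-6 mutants and 167, 124 and 288 in the double mutant.

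The values assigned to pud-1.1 followed another pattern between libraries. They were 134, 125 and 80.1 CPM in N2, 33.2, 24.2 and 64.4 in daf-2 mutants, 334, 185 and 168 in pfd-6 mutants, and 16.8, 16.52 and 8.41 in the double mutant. For this copy no libraries of different genotypes overlapped, and the order was pfd-6, N2, daf-2, double mutant. With counts scaled by library totals alone, daf-2 replicate 3 (86.3 CPM) was above N2 replicate 3 (59.8). In both N2 and the double mutant, replicate 3 was highest for pud-1.2 and lowest for pud-1.1, and there pud-1.1 took 3.37% and 2.84% of the pair.

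The pud-2 genes encode the other subunit of the heterodimer. The pud-2 pair stood at 1317, 872 and 2263 CPM in N2, 317, 181 and 624 in daf-2 mutants, 2574, 1925 and 1236 in pfd-6 mutants and 163, 121 and 271 in the double mutant. As for pud-1, all N2 and pfd-6 libraries were above all daf-2 and double mutant libraries. Again this depended on the scaling: by library totals alone, daf-2 replicate 3 (836 CPM) was above N2 replicate 2 (709). The copy pud-2.2 stood at 1098, 772 and 1667 CPM in N2, 264, 148 and 386 in daf-2 mutants, 2200, 1604 and 1001 in pfd-6 mutants, and 163, 120 and 135 in the double mutant.

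The assigned values of pud-2.1 were the most scattered of the cluster. They were 220, 99.7 and 595 CPM in N2, 52.8, 33.0 and 238 in daf-2 mutants, 374, 321 and 234 in pfd-6 mutants, and 0.0120, 1.303 and 135 in the double mutant. Libraries of neighbouring genotypes overlapped throughout, and only pfd-6 and the double mutant were apart.

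The pud-3 and pud-4 genes, in the middle of the cluster, were separated from daf-2 to the double mutant as well. In replicates 1, 2 and 3, pud-3 stood at 465, 277 and 643 CPM in N2, 144, 97.2 and 212 in daf-2 mutants, 592, 663 and 256 in pfd-6 mutants and 42.6, 29.2 and 41.1 in the double mutant. For pud-4 the values were 314, 182 and 246 CPM in N2, 114, 71.4 and 78.1 in daf-2 mutants, 325, 410 and 95.1 in pfd-6 mutants and 23.1, 19.2 and 22.3 in the double mutant. The double mutant libraries were the lowest for both genes, and the daf-2 libraries lay below the N2 libraries. For pud-3, N2 and daf-2 overlapped with counts scaled by library totals alone (daf-2 replicate 3 at 284 CPM, N2 replicate 2 at 225). In pfd-6 replicate 3, a library with few ribosomal protein counts, both genes were well below the other pfd-6 libraries, and pud-4 fell within the daf-2 range. That last placement depended on the scaling. With counts scaled by library totals alone, pud-4 was at 152 CPM there, above the daf-2 libraries at 123, 69.0 and 105.

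By group mean, all 6 members had the same order: pfd-6 mutants, N2, daf-2 mutants, double mutant. The step from pfd-6 to N2 overlapped between libraries for 5 of 6 members, pud-1.1 being the exception. Every pfd-6 library was above every N2 library for 4.71% of all genes. With counts scaled by library totals alone, pud-2.2 was apart in that step too, at 1367 CPM or more in pfd-6 mutants and 1245 or less in N2. The step from N2 to daf-2 was free of overlap for 5 of 6, pud-2.1 being the exception, against 7.66% of all genes. Scaled by library totals alone, daf-2 replicate 3 was above the lowest N2 library for pud-1.1, pud-1.2 and pud-3 (86.3, 778 and 284 CPM against 59.8, 674 and 225). Only pud-2.2 and pud-4 were then apart in this step. The shares over all genes are for the CPM given above. The step from daf-2 to the double mutant was free of overlap for pud-1.1, pud-3 and pud-4, against 14.2% of all genes. Nothing is read from pud-1.1 in the steps that hold pfd-6 or double mutant libraries, since it was chosen on those values. In whole animals, fewer cells making an RNA and less RNA per cell cannot be told apart.

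**Figure D3:**
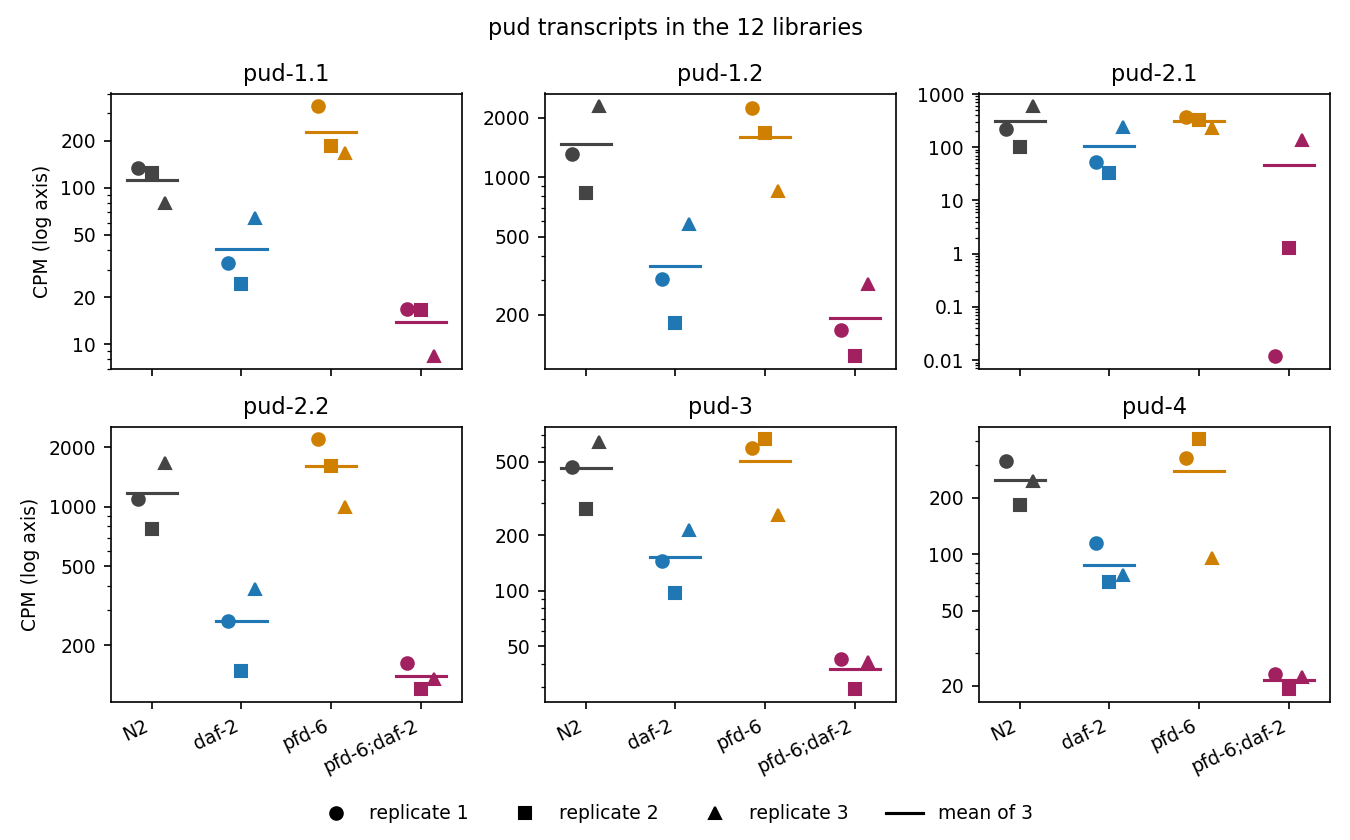
CPM of each pud gene (vertical log axes, scaled separately) in the 4 genotypes. Each point is 1 library with its replicate number as shape, and each line is the mean of 3. The double mutant has the lowest mean for every gene, and the pud-2.1 panel spans from 0.0120 to 595 CPM.

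The comparison of daf-2 mutants with N2 asks how the genes named for the daf-2 mutant behave there at the RNA level. Its fold changes set N2 against daf-2 libraries only. The selecting libraries still entered the spread, filter and scaling shared by its tests. Fitted on the N2 and daf-2 libraries alone, edgeR called 0 of 6 members, where 94 of 13827 genes were called in either direction. In the fit of all 12 libraries, all 6 log2 fold changes were negative, between -2.15 and -1.48. Their median was -1.55, against 0.03 over all 15090 genes tested. The pud-1 pair was 4.02-fold lower (log2 fold change -2.01 ± 0.58 SE, n = 3 and 3) and the pud-2 pair 3.97-fold lower (-1.99 ± 0.59), but neither reached the threshold of 0.05 in edgeR's quasi-likelihood test (Benjamini-Hochberg adjusted p = 0.175 and 0.184). The heterodimer genes thus had point estimates about equal in size. The log2 fold change of pud-3 was -1.61 ± 0.45 (adjusted p = 0.155, edgeR) and that of pud-4 was -1.49 ± 0.45 (adjusted p = 0.195).

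None of the 6 genes was called lower in daf-2 mutants at an adjusted p under 0.05, where 0.219% of all genes tested were called lower and 0.716% higher. At an unadjusted p under 0.05 in edgeR, 5 of 6 were lower, against 2.78% of all genes. The same 5 had all daf-2 libraries below all N2 libraries, against 7.66% of all genes. For pud-1.1, pud-1.2 and pud-3 this did not hold with counts scaled by library totals alone. The gene left out of both counts was pud-2.1, at -1.50 ± 1.60 (adjusted p = 0.776). The single copy nearest the threshold was pud-2.2, at -2.15 ± 0.50 (adjusted p = 0.0694). In the fit blocked on replicate it passed, at -2.17 and an adjusted p of 0.0479, the only member to do so, where 0.471% of all genes were called lower.

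How many members passed depended on the tool and on the low-ribosomal libraries. DESeq2's Wald test called 4 of 6 lower (pud-1.1, pud-1.2, pud-2.2 and pud-3), against 0.782% of all genes. Limma-voom called pud-2.2 alone, against 0.239% of all genes. Without the low-ribosomal libraries, the quasi-likelihood test called pud-1.2, pud-2.2 and pud-3, with adjusted p-values of 0.0426, 0.0178 and 0.0352, against 0.369% of all genes. The log2 fold changes were then -2.54 for the pud-1 pair and -2.56 for the pud-2 pair (adjusted p = 0.0354 and 0.0396), -2.59 for pud-1.2, -2.50 for pud-2.2 and -1.93 for pud-3. Not called were pud-1.1 at -1.97, pud-2.1 at -2.82 and pud-4 at -1.41 (adjusted p = 0.0583, 0.568 and 0.0522). No setting gave any member a positive log2 fold change in daf-2 mutants.

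The comparison of pfd-6 mutants with N2 asks what loss of prefoldin subunit 6 does where daf-2 is intact. It shares the pfd-6 libraries with the selecting comparison, so the pud-1 genes are only described in it. None of the other 4 genes was called (adjusted p under 0.05 in either direction, 0.0994% of all genes), and none had an unadjusted p under 0.05 in edgeR, against 6.93% of all genes. Their log2 fold changes were 0.02 ± 1.57 for pud-2.1, 0.44 ± 0.48 for pud-2.2, 0.13 ± 0.44 for pud-3 and 0.16 ± 0.44 for pud-4 (adjusted p from 0.734 to 0.997). DESeq2 and limma-voom called none of the 4 either. Without the low-ribosomal libraries the values were 0.25, 0.75, 0.48 and 0.60 (adjusted p from 0.742 to 0.958), and none was called. With standard errors of this size, a p that misses the threshold does not show equal levels.

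Among the untested pud-1 values, pud-1.1 was 1.02 ± 0.43 higher on the log2 scale in pfd-6 mutants, and all 3 of its pfd-6 libraries were above all N2 libraries, as were those of 4.71% of all genes. Its copy pud-1.2, which carried most of the pair, differed by 0.10 ± 0.58 and overlapped. The pair as a whole differed by 0.19 ± 0.56. Without the low-ribosomal libraries these values were 1.27, 0.47 and 0.54. The share of the pair given to pud-1.1 was 9.27%, 13.1% and 3.37% in the N2 replicates and 12.96%, 9.94% and 16.44% in the pfd-6 replicates, with overlap between the genotypes.

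Setting the double mutant against daf-2 mutants asks what loss of prefoldin subunit 6 does where insulin signalling is reduced. It shares the double mutant libraries with the selecting comparison, and the pud-1 genes are again described only. The tests of the other members are not fully independent of the choice. Over the 12 libraries, pud-3 and pud-4 had correlations of 0.910 and 0.882 with the chosen pud-1.1. Here pud-3 fell by 2.01 ± 0.46 on the log2 scale (4.02-fold, adjusted p = 0.0390, edgeR, n = 3 and 3) and pud-4 fell by 2.03 ± 0.46 (4.08-fold, adjusted p = 0.0369). For both genes every double mutant library was below every daf-2 library. In the fit blocked on replicate the adjusted p-values were 0.0334 and 0.0279, where 1.27% of all genes were called lower.

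These were 2 of the 4 members tested, where 0.384% of all genes were called lower and 2.73% higher. The same 2 had an unadjusted p under 0.05, against 7.13% of all genes, and groups that did not overlap, against 14.2% of all genes lower in that way. The median of the 4 was -1.63, against -0.07 over all genes. The pud-2 pair had a log2 fold change of -1.01 ± 0.57 (adjusted p = 0.453, edgeR), pud-2.2 of -0.93 ± 0.48 (adjusted p = 0.399) and pud-2.1 of -1.24 ± 1.59 (adjusted p = 0.782). Whether pud-3 and pud-4 differed more than the pud-2 genes was not tested. The untested pud-1 pair stood at -0.94 ± 0.57, with -1.54 ± 0.43 for pud-1.1 and -0.88 ± 0.59 for pud-1.2.

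The calls of pud-3 and pud-4 were close to the threshold and were lost in several settings. Neither was called when any 1 of the 6 daf-2 or double mutant libraries was left out, with adjusted p-values from 0.0925 to 0.160, although the log2 fold changes stayed between -2.24 and -1.63. Calls over all genes, in either direction, fell in the same settings from 470 with all libraries. They were 0, 12 and 0 without daf-2 replicates 1, 2 and 3, and 24, 222 and 6 without double mutant replicates 1, 2 and 3. Without the low-ribosomal libraries, pud-4 was called (-2.07, adjusted p = 0.0354) and pud-3 was not (-1.65, adjusted p = 0.0528), where 0.23% of all genes were called lower. The heterodimer genes moved more: the pud-2 pair was then at -0.40 (adjusted p = 0.700), pud-2.2 at -0.53, pud-2.1 at 0.10, and the untested pud-1 pair at -0.37, pud-1.1 at -0.999 and pud-1.2 at -0.31. Without N2 replicate 1 pud-3 was lost (adjusted p = 0.0561), and without N2 replicate 2 pud-4 was lost (adjusted p = 0.05004).

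The composition of the cluster's RNA differed with these values. The summed expected counts of pud-3 and pud-4, divided by those of the pud-1 and pud-2 genes, were 0.281, 0.251 and 0.192 in N2 and 0.395, 0.434 and 0.229 in daf-2 mutants. They were 0.178, 0.283 and 0.156 in pfd-6 mutants and 0.189, 0.185 and 0.112 in the double mutant. All daf-2 libraries were above all double mutant libraries in this ratio, and in each genotype replicate 3 was lowest. The ratio of pud-3 to pud-4 was itself 1.26 to 1.84 in replicates 1 and 2 and 1.84 to 2.72 in replicate 3. Whether replicate 3 was the set that the protocol says was sequenced later is not stated.

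The step that selected the genes, from pfd-6 mutants to the double mutant, is given for completeness. The chosen gene pud-1.1 was lower by 16.44-fold, at a log2 fold change of -4.04 ± 0.48. The other members had log2 fold changes of -3.04 ± 0.63 (pud-1.2), -2.77 ± 1.67 (pud-2.1), -3.52 ± 0.52 (pud-2.2), -3.74 ± 0.50 (pud-3) and -3.68 ± 0.49 (pud-4). The pairs stood at -3.14 ± 0.61 for pud-1 and -3.37 ± 0.62 for pud-2. For all 6 genes the double mutant libraries were below the pfd-6 libraries, as they were for 13.9% of all genes; nothing is read from this count, since the comparison chose the members. Without the low-ribosomal libraries pud-1.1 was at -4.24 and the other members between -4.08 and -2.96. The value of pud-2.1 rested on double mutant replicate 3, without which it was -8.996.

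**Figure D4:**
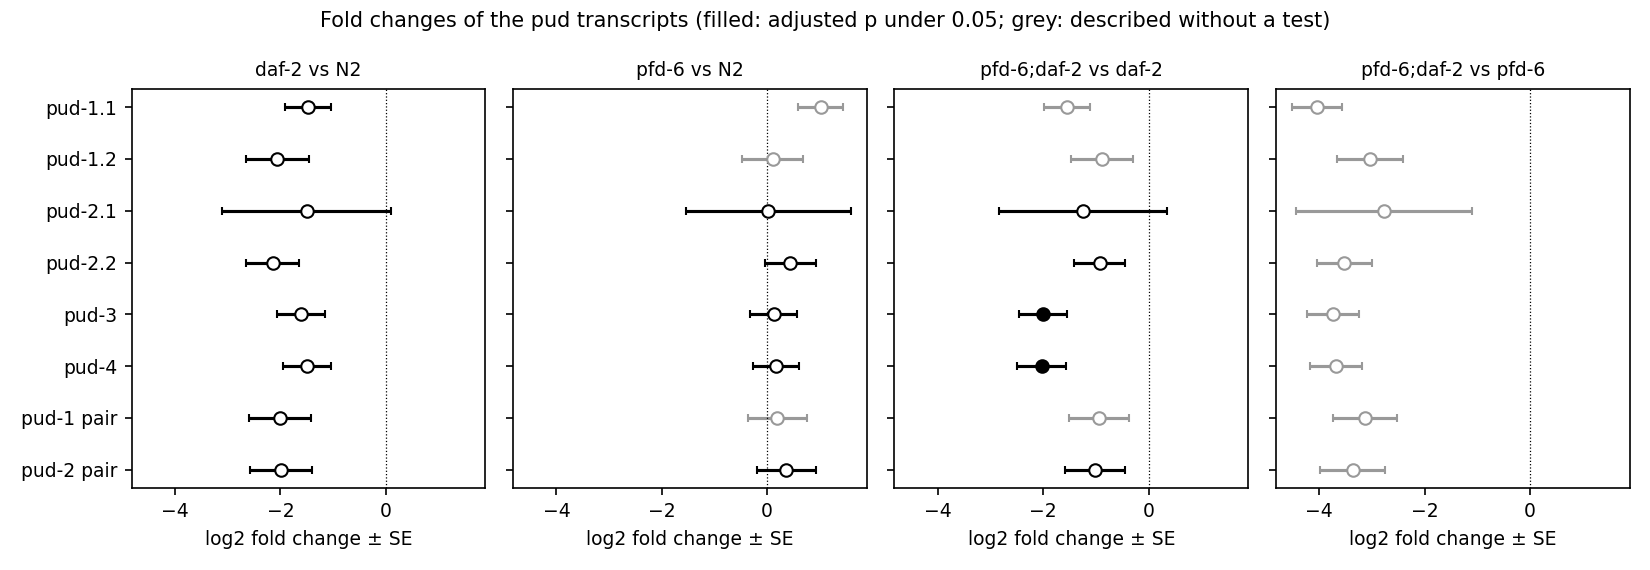
Log2 fold changes ± SE of the 6 genes and the 2 summed pairs in 4 comparisons (horizontal axes shared). Filled points have an adjusted p under 0.05, open black points do not, and grey points were described without a test. Only pud-3 and pud-4 in the double mutant against daf-2 mutants are filled, at -2.01 and -2.03.

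Across libraries the pud-1 and pud-2 pairs, which encode partners of 1 heterodimer and lie side by side in the genome, stayed in nearly constant proportion. The ratio of their expected counts was 1.03 to 1.16 in the 9 libraries of N2, daf-2 and the double mutant and 0.826 to 1.00 in the 3 pfd-6 libraries. Their log2 CPM had a Pearson correlation of 0.998 over 12 libraries, and of 0.992 after the genotype means were taken out. The correlation of pud-3 with pud-4 was 0.972 over all libraries and 0.744 within genotypes, and that of the pud-1 pair with pud-4 was 0.896 and 0.516. These are descriptions only, since the points share libraries and scaling.

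The genes most like each member over the 12 libraries were found by the correlation of log2 CPM among genes with a mean of at least 1 CPM. This picking used the same libraries as the tests quoted for these genes, so those tests are not independent of it. The ShK domain peroxidase gene skpo-1 was among the 3 closest genes for 4 members, with r from 0.931 for pud-2.2 to 0.963 for pud-1.1. Within genotypes, its correlation was 0.882 with pud-1.1 but 0.339 with pud-2.2, 0.283 with pud-3 and 0.290 with pud-4. Its mean was 503 CPM in N2, 314 in daf-2 mutants, 498 in pfd-6 mutants and 207 in the double mutant, in the same order as the pud genes apart from N2 and pfd-6. Its log2 fold change in daf-2 mutants was -0.68 (adjusted p = 0.427, edgeR).

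The C-type lectin gene clec-190 was among the 3 closest for pud-1.2 (r = 0.920, and 0.420 within genotypes) and pud-2.2 (r = 0.966, and 0.690 within genotypes). It was lower in daf-2 mutants by a log2 fold change of -3.40 (adjusted p = 0.00294, edgeR), at 19.4 CPM in N2 and 1.83 in daf-2 mutants. The gene aakg-4, for a gamma subunit of AMP-activated protein kinase, was close to pud-2.2 (r = 0.937) and had a log2 fold change of -1.65 in daf-2 mutants (adjusted p = 0.0457, edgeR). Within genotypes its correlation with pud-2.2 was 0.175. Both genes were picked for following members with lower values in daf-2 mutants, so their adjusted p-values are description only.

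Beside skpo-1, the closest genes to pud-1.1 were T28A11.2 (r = 0.973) and T28A11.16 (r = 0.960), from another stretch of chromosome V. For pud-1.2, beside clec-190, they were nuc-1, which encodes a deoxyribonuclease (r = 0.952), and dbt-1, for a subunit of the branched-chain keto acid dehydrogenase (r = 0.937). The cytochrome P450 gene cyp-31A2, which has a closely related copy that could share its reads, was close to pud-3 (r = 0.956) and pud-4 (r = 0.947), and ddo-3, for a D-aspartate oxidase, to pud-4 (r = 0.950). The closest genes to pud-2.1 were less alike: gstk-1, for a glutathione transferase, at 0.855, cyp-35A5 at 0.847 and ndx-6 at 0.830. Within genotypes these correlations, skpo-1 and clec-190 aside, ran from 0.564 to 0.867. Of the genes from T28A11.2 to ndx-6 just named, none passed the test in any of the 3 tested comparisons.

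Around the cluster, RNA levels were low. Within 20 kb of its ends lie 12 annotated genes, 8 of them named irld (insulin-like and epidermal growth factor receptor L domain genes). Of the 12, 7 are annotated as protein-coding and the rest as pseudogenes. All 12 are in the files, and 2 passed the filter on low counts, Y19D10B.6 and WBGene00021222. No group mean among the 12 was above 7.47 CPM, and neither tested gene was called in any of the 3 comparisons. The mean of WBGene00021222 was 2.94 CPM in N2, 0.704 in daf-2 mutants, 7.42 in pfd-6 mutants and 1.01 in the double mutant. Its log2 fold changes were -2.07 in daf-2 mutants (adjusted p = 0.307, edgeR), 1.32 in pfd-6 mutants (0.614) and 0.49 in the double mutant against daf-2 mutants (0.815). For Y19D10B.6 they were 0.88, 0.31 and 0.89.

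Known targets of DAF-16 serve as a frame for the daf-2 comparison. Of 28 tested genes from a list of those raised in daf-2 mutants, 4 were higher and none lower in daf-2 mutants against N2. Of all genes, 0.716% were called higher. The list had a median log2 fold change of 0.80 against 0.03 over all genes. The 4 were the superoxide dismutase gene sod-3 (2.37 ± 0.32, adjusted p = 0.00387), the metallothionein gene mtl-1 (4.40 ± 0.72, 0.0122), nnt-1, for the mitochondrial transhydrogenase (2.04 ± 0.36, 0.0213), and the cytochrome P450 gene cyp-35B1 (2.29 ± 0.47, 0.0405). Of 13 tested genes from a list of those lowered, dod-22 (-4.07 ± 0.51, adjusted p = 0.00192) and dod-24 (-4.39 ± 0.80, 0.0222) were lower, with a median of -0.85. Of all genes, 0.219% were called lower. None of either list was called in pfd-6 mutants against N2 or in the double mutant against daf-2 mutants.

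Marker genes of the tissues were set beside the pud values. In N2, 12 of 14 intestine, 8 of 16 hypodermis, 7 of 8 muscle and 10 of 10 germline markers had a mean of at least 10 CPM, and none of 13 sperm markers did. In daf-2 mutants against N2 none of the lists for intestine, hypodermis, muscle, pharynx, neurons, germline or sperm had a called member. The summed level of 14 intestine markers was 3285 to 4700 CPM in N2, 1136 to 2672 in daf-2 mutants, 1143 to 3442 in pfd-6 mutants and 3234 to 3633 in the double mutant, with no marker at 0. The median log2 fold change of the intestine list in daf-2 mutants was -0.24, against -1.57 for sperm, -0.87 for pharynx, -0.71 for muscle, -0.56 for germline, -0.02 for hypodermis and 0.09 for neurons. In the double mutant against daf-2 mutants, where pud-3 and pud-4 fell, 10 of 13 sperm markers were higher and no member of the other lists was called. Of all genes, 2.73% were called higher there. The summed sperm markers were 110 to 295 CPM in the double mutant and 4.15 to 12.7 in daf-2 mutants, and those of hypodermis 2891 to 3072 and 493 to 1650, with no marker at 0 in either list. The sums overlapped for muscle (3428 to 8957 and 931 to 4137) and pharynx (46.1 to 240 and 30.0 to 65.1). Their median log2 fold changes were 1.09 and 1.19, against 0.49 for hypodermis. The part of these tissue differences in the pud results was not tested.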

How the data were processed

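Per the labels' protocols, paired-end mRNA-seq libraries were made from total RNA. The authors deposited 1 table of expected counts per gene for each of 12 libraries, per the file headers, without scaling to depth. The submitters' processing notes name R 3.1.3, limma 3.24.15, RSEM 1.3.1, StringTie 1.3.3 and HISAT2 2.0.5 with builds ce11 and WBcel235; the role of each is not given in the sources used here. Positions and exon lengths came from Ensembl release 115 of WBcel235, which held 46817 of the 46904 IDs.

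Expected counts were rounded, filtered (filterByExpr, minimum count 10) and scaled by TMM. One edgeR 4.0.16 quasi-likelihood fit (R 4.3.3) covered all libraries by genotype, with p-values adjusted over 15090 genes; the fits were tested on simulated data. CPM are unrounded expected counts over TMM-scaled totals. DESeq2 1.42.0, limma-voom (limma 3.58.1), another scaling, no filter, a threshold of 0.01, left-out libraries and a replicate block were alternatives, and sums of the copies were added after the values were seen.

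Same-numbered libraries deviated together for N2 with daf-2 (correlations 0.453, 0.271 and 0.310) and for the double mutant with daf-2 (0.315, 0.211 and 0.137). The main fit did not use the numbers as pairs. Only the alternative fit blocked on replicate did so. For N2 with pfd-6 they were 0.345, 0.0344 and 0.000163.

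The members and gene lists were chosen with earlier results of these data known. Named beside the pud genes were the 3 genes most correlated with each, list members called in daf-2 mutants, and neighbours called or of at least 10 CPM, with the 2 tested neighbours named in addition after their values were seen. Gene, promoter and protein sequences, related proteins and promoter motifs were not analysed here.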

Additional observations from a re-analysis of the deposited data

Results flagged for a closer look

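The log2 fold change of pud-1.1 between genotypes with and without the pfd-6 allele had opposite signs in the 2 backgrounds. It was 1.02 ± 0.43 in pfd-6 mutants against N2 and -1.54 ± 0.43 in the double mutant against daf-2 mutants, a difference of -2.56 ± 0.61. All 3 pfd-6 libraries were above all N2 libraries, as for 4.71% of all genes. All 3 double mutant libraries were below all daf-2 libraries, as for 14.2% of all genes. The difference was not tested, because it contains the drop from pfd-6 mutants to the double mutant on which the gene was chosen. Nothing is read from the opposite signs for the same reason. The values depend on the division of reads between pud-1.1 and pud-1.2: the pair as a whole gave 0.19 ± 0.56 and -0.94 ± 0.57, with overlapping libraries in both comparisons.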

How the results depend on the processing

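In daf-2 mutants against N2 the number of members called, 0 of 6, became 4 with DESeq2, 1 with limma-voom, 1 with the replicate block, 3 without replicate 3 of any genotype, 3 without the low-ribosomal libraries, and 0 to 2 when each library was left out in turn (2 when pfd-6 replicate 3 was the one). Over all genes, calls in either direction were then 401, 141 and 253 of 15090 with DESeq2, limma-voom and the block. They were 205 of 15024 without replicate 3 of any genotype and 222 of 15187 without the low-ribosomal libraries. Without pfd-6 replicate 3 they were 249 of 15360. In the double mutant against daf-2 mutants, 2 of 4 became 0 at a threshold of 0.01, 1 without replicate 3 of any genotype, 1 without the low-ribosomal libraries, and 0 to 2 when each library was left out. It stayed 2 with DESeq2, limma-voom, the block and the copies summed. Over all genes, calls in either direction were 2 of 15090 at 0.01 and 145 of 15024 without replicate 3 of any genotype. They were 163 of 15187 without the low-ribosomal libraries, and 916, 495 and 814 of 15090 with DESeq2, limma-voom and the block. In pfd-6 mutants against N2 the count was 0 of 4 throughout. Of all genes tested, 141, 15 and 470 genes were called in daf-2 mutants against N2, pfd-6 mutants against N2 and the double mutant against daf-2 mutants, with ranges over the settings of 41 to 401, 8 to 31 and 0 to 916.

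The log2 fold changes of pud-2.1, pud-3 and pud-4 in pfd-6 mutants against N2 changed sign with the library left out (-0.40 to 0.96, -0.14 to 0.46 and -0.24 to 0.58), and that of pud-4 with limma-voom (-0.0226). In the double mutant against daf-2 mutants, pud-2.1 ran from -7.43 to 0.14 with libraries left out and was 0.10 without the low-ribosomal libraries. The cause was not tested. The replicate block changed no other call. Depth did not limit the abundant members. The counts of pud-2.1 were under 50 in 2 double mutant libraries, replicates 1 and 2. There the pud-2 pair held 4629 and 3921 counts, of which 0.00735% and 1.07% were put on pud-2.1.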
